A study of Mus musculus with 6 samples.

Results

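The interferon receptors and STAT factors described here are 9 of the 24421 gene symbols measured by RNA-seq in liver endothelial cells (ECs): the interferon-γ receptor chains Ifngr1 and Ifngr2, the type I interferon receptor chains Ifnar1 and Ifnar2, the transcription factors Stat2, Stat4, Stat5a and Stat6, and the inhibitor Socs1. They were chosen by name and not by a rule on their values, but with earlier results of these data known. The ECs were CD31+CD45− by flow cytometry. They came from 3 young mice, 10 weeks old, and 3 aged mice of 127, 131 and 136 weeks by the sample labels. Each library is taken here as 1 mouse. The study's methods give 3 independent samples per group but do not say that each was 1 mouse. All were wild-type C57BL/6J mice, female by the study's methods, and the labels name no transgene or treatment in either group. The question is whether the genes through which ECs receive interferons and other cytokines were expressed at other levels in aged liver ECs. All 9 genes passed the filter on low counts, a level of 0.5 CPM or more in at least 1 library (CPM are reads per 1e6 reads of the library, scaled by TMM factors). Stat4 reached that level in aged libraries only, and the other 8 genes in both ages.

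Interferon-γ binds a receptor made of Ifngr1, the ligand-binding chain, and Ifngr2, the chain needed for signalling. Interferons α and β bind a receptor made of Ifnar1 and Ifnar2. Both receptors carry JAK kinases, which phosphorylate STAT proteins so that these enter the nucleus. Interferon-γ acts largely through the gamma-activated site (GAS) in its target genes, whereas type I interferons act largely through a complex that holds STAT2 and IRF9 and binds the interferon-stimulated response element (ISRE). STAT4 acts below the interleukin-12 receptor in T and NK cells, STAT5A below growth factor and cytokine receptors such as those for growth hormone, prolactin, erythropoietin and interleukin-3, and STAT6 below the interleukin-4 and interleukin-13 receptors. SOCS1 is made in response to STAT signalling and blocks JAK kinases. In liver ECs, interferon signalling is known for inducing chemokines and antigen-presentation genes.

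The promoters of 3 of the 9 genes held letters of the ISRE type, and they are shown because these genes are themselves possible targets of the pathway. They are the 250 bases before the transcription start in RefSeq (GRCm38.p6, a later build than the mm9 of the deposited data), written 5′ to 3′ on the gene's strand in lower case with the matches in capitals. The Socs1 window lies at chr16:10785537-10785786 on the minus strand, the Stat2 window at chr10:128270248-128270497 and the window of the second listed start of Stat4 at chr1:52007990-52008239, both on the plus strand.
Socs1: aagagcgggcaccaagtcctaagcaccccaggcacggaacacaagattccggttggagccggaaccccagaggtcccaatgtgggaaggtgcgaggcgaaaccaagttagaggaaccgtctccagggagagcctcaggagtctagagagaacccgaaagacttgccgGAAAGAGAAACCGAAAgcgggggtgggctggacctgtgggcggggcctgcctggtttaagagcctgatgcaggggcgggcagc
Stat2: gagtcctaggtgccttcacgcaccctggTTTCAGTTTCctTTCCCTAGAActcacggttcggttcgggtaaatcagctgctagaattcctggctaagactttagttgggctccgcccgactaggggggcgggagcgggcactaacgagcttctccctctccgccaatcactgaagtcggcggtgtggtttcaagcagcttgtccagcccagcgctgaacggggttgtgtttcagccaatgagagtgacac
Stat4, second start: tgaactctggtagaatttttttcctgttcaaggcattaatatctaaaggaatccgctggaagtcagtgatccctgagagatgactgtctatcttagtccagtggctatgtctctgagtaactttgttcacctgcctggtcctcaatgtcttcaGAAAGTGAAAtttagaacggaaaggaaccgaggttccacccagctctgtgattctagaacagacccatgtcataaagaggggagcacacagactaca
The capitals mark GAAANNGAAA on either strand and, in Stat2 as the second capital run, TTCNNNNGAA, the spacing that STAT6 prefers. Socs1 had a pair of overlapping ISRE-type matches. Stat4 had 1 that began at position -97, and Stat2 had 1 on the minus strand that began at position -222 (counted from the transcription start). The ISRE-type letters stood in 3 of the 11 windows of these genes and in 2.98% of 32851 promoter windows of this length. TTCNNNGAA, the letters of a GAS, stood in 1 window, that of Ifnar2, against 7.02% of all windows, and TTCNNNNGAA in 2, those of Stat2 and Ifngr2, against 5.85%. A match is a description of the letters and not a measured binding site.

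In the mm9 annotation (GENCODE), both type I receptor chains and Ifngr2 lay side by side on chromosome 16. Ifnar2 (chr16:91373028-91419696), Il10rb, Ifnar1 (chr16:91485483-91507686) and Ifngr2 (chr16:91547317-91565414), 4 genes on the plus strand, spanned 192387 bases. Ifnar2 shared 569 exon bases with Il10rb, a receptor chain for interleukin-10 and interferon-λ, and reads from the shared bases could be counted for either gene. Ifngr1 lay apart on chromosome 10 (chr10:19311755-19330035), as did Stat6 (chr10:127080042-127098013) and Stat2 (chr10:127707629-127729905). Stat4 (chr1:52043992-52164032) lay on chromosome 1. Stat5a (chr11:100720665-100746483) lay between Stat5b and Stat3, shared 72 exon bases with the opposite-strand Stat3, and shared 10.1% of its possible 75-base reads with Stat5b, so that its count depended on how such reads were assigned. Stat6 shared 40 exon bases with Nab2, on the opposite strand. Socs1 (chr16:10783901-10785629) lay on the minus strand of chromosome 16, far from the receptor cluster.

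Total counts ran from 23001556 to 31651817 per library, and 3 counts, the floor used here, stood at 0.0946 to 0.135 CPM. Such floors cover counting error only, and the p-values cover the spread between libraries, taken here as separate mice. The libraries fell into 2 kinds by the share of counts for Lars2 and Rn45s, symbols that collect ribosomal RNA reads. Young replicate 3 and the 127-week library had 1.29% and 0.960%, and the other 4 libraries had 4.68% to 5.53%. Pecam1, which encodes CD31, stood at 1366 to 1635 CPM in all libraries. The summed level of 12 endothelial markers ran from 22866 to 25161 CPM in young and from 11615 to 17487 CPM in aged ECs. Of the 12, 7 were lower in aged ECs at an unadjusted p below 0.05, namely Kdr, Stab1, Stab2, Clec4g, Oit3, Fcgr2b and Gpr182. Pecam1, Cdh5, Tek, Tie1 and Lyve1 had no such p (log2 fold changes of 0.01, -0.21, -0.38, -0.16 and 0.58). The lower sum thus does not hold for every endothelial marker. Ptprc, which encodes CD45, stood at 1.17 to 1.70 CPM in young ECs and at 7.56, 1.28 and 25.6 CPM at 127, 131 and 136 weeks. All 6 pan-leukocyte markers, of which 5 reached 0.5 CPM in both ages, had positive fold changes with an unadjusted p below 0.05, and their summed level was 13.4 to 21.9 CPM in young ECs and 44.5, 15.8 and 176 CPM at 127, 131 and 136 weeks. The summed level of 12 T and NK cell markers was 3.11 to 3.94 CPM in young ECs and 16.8, 1.98 and 61.3 CPM in the same aged libraries. Of these 12 genes, 9 reached 0.5 CPM in aged libraries only, among them all 5 that had such a p, so their count follows from the filter. Of the other lists, 2 of 9 myeloid and 1 of 3 neutrophil markers were higher at that p (myeloid sums of 40.0 to 82.6 CPM in young, 30.2 to 444 CPM in aged; neutrophil sums of 1.64 to 5.73 and 4.99 to 28.3 CPM). Of 7 hepatocyte and 7 stellate markers, 3 and 1 were lower (sums of 109 to 172 and 77.1 to 98.3 CPM for hepatocytes, 124 to 449 and 191 to 679 CPM for stellate cells), and 0 of 4 B cell (0.946 to 1.23 and 0.739 to 8.49 CPM) and 0 of 3 cholangiocyte markers (5.90 to 21.1 and 16.4 to 21.6 CPM) had such a p. Over all 14612 genes tested, 1216 were higher and 631 lower at an unadjusted p below 0.05, together 12.6%. The 1 of 7 for stellate markers is near that share. In bulk samples, fewer cells of a type and less RNA per cell cannot be told apart.

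None of the 9 genes differed between aged and young liver ECs after adjustment over all genes. edgeR's quasi-likelihood test called 0 of the 14612 genes tested at an adjusted p below 0.05 (0%), while 1847 (12.6%) had an unadjusted p below 0.05, and DESeq2's adjusted p called 630 genes, none of which was among the 9. Stat5a was the 1 of the 9 with an unadjusted p below 0.05, and it was also the 1 whose aged and young CPM did not overlap. Such a separation was found for 2622 (17.9%) of all genes tested, and with aged above young for 1405 (9.62%), so that 1 of 9 is near the share over all genes. The fold changes of the 9 genes were positive for 6 and negative for 3, with a median log2 fold change of 0.04 against 0.0098 over all genes. The 6 include Stat4, which passed the filter through aged libraries only.

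**Figure D1:**
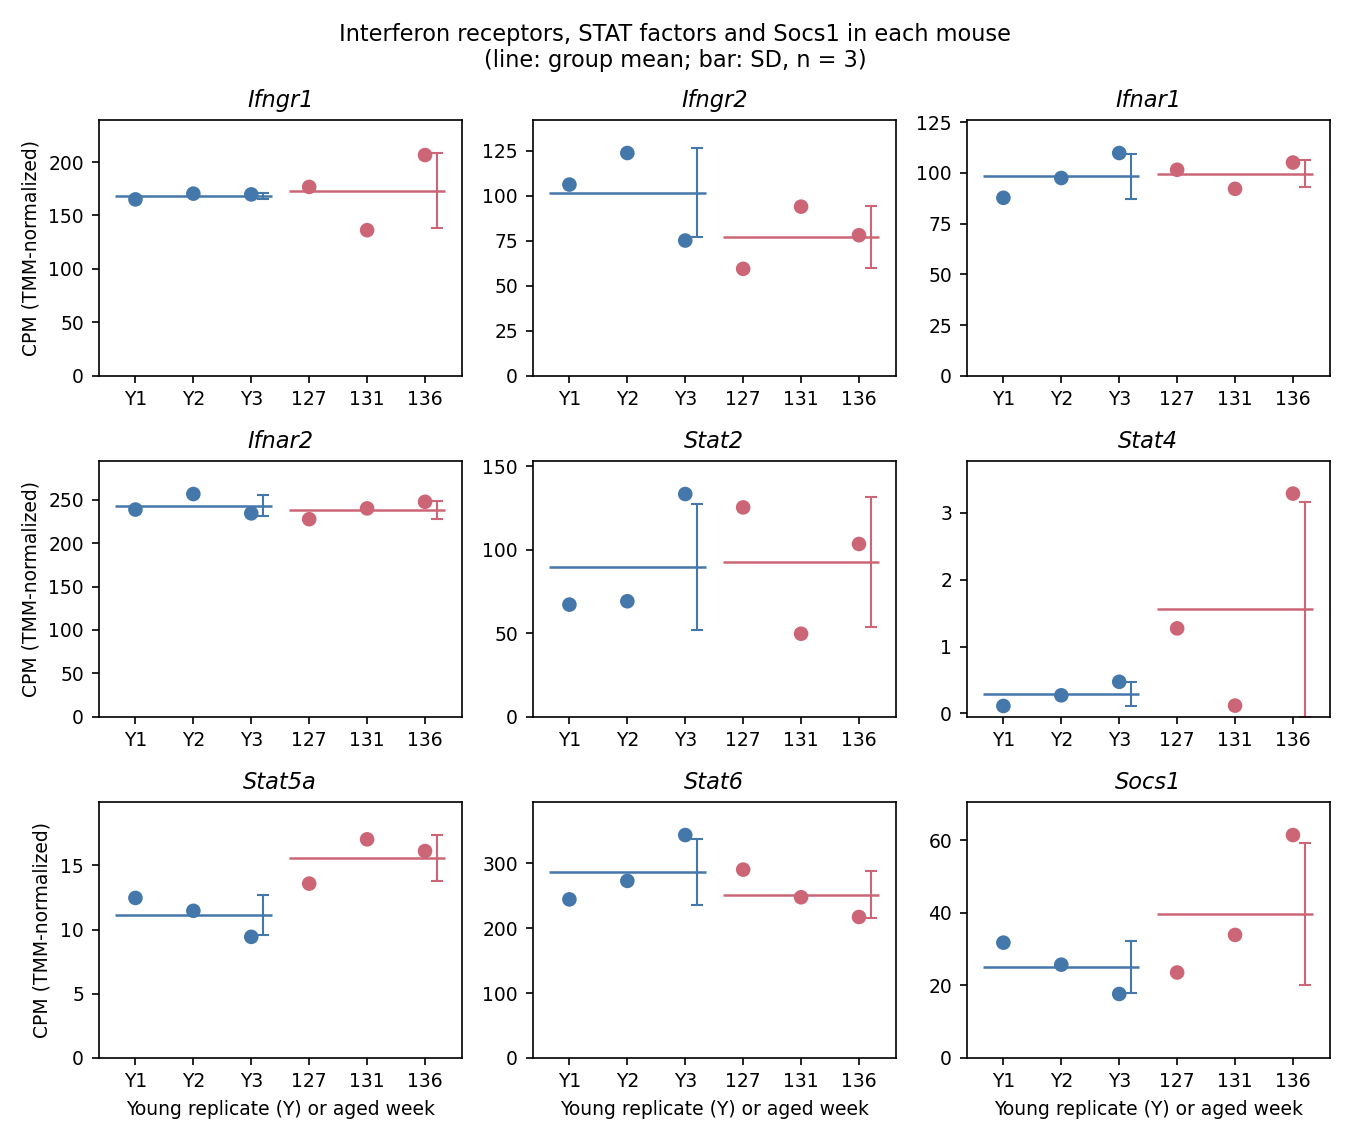
CPM (linear axis) of each gene in each of the 3 young (Y1 to Y3, blue) and 3 aged (weeks, red) libraries, with lines at the group means and bars of 1 SD, n = 3. The ages separate for Stat5a, with young values of 9.43 to 12.5 CPM below aged values of 13.6 to 17.0 CPM, and overlap for the other 8 genes.

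The type I interferon receptor chains were at nearly the same counts in both ages. Ifnar2 stood at 239, 256 and 234 CPM in young replicates 1, 2 and 3 and at 228, 240 and 248 CPM at 127, 131 and 136 weeks. The aged values lay on both sides of the young ones, with means of 243 ± 11.8 and 238 ± 10.1 CPM (SD, n = 3). The log2 fold change was -0.03 (SE 0.13), with a 95% interval of the fold from 0.794 to 1.21 and an adjusted p of 0.958 in edgeR. On the deposited FPKM scale, which divides by transcript length and scales libraries in another way, the young values of Ifnar2 were 168, 181 and 164.3 and the aged values 145, 162 and 164.2, so that the ages just separated on that scale.

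Ifnar1 stood at 87.7, 97.4 and 110 CPM in young and at 101, 92.1 and 105 CPM in aged ECs, with all aged values inside the young range. Its log2 fold change was 0.02 (SE 0.14), the interval of the fold ran from 0.805 to 1.27, and the adjusted p was 0.978. Differences smaller than these intervals could not be detected for either chain with 6 libraries.

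The interferon-γ receptor chains differed in their spread among the young mice. Ifngr1 stood at 165, 170 and 170 CPM in young ECs, a spread of only 2.93 CPM (SD, n = 3). In aged ECs it stood at 177, 136 and 207 CPM, with an SD of 35.3 CPM. The lowest and the highest of the 6 values were both aged, at 131 and 136 weeks. Its log2 fold change was 0.04 (SE 0.18), with a fold interval of 0.773 to 1.37 and an adjusted p of 0.957. It turned to -0.10 without the 136-week library and became 0.19 without the 131-week one.

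Ifngr2 had the most negative fold change of the 9 genes. It stood at 106, 124 and 75.2 CPM in young and at 59.4, 94.0 and 78.1 CPM in aged ECs, with means of 102 ± 24.6 and 77.2 ± 17.3 CPM (SD, n = 3). In both ages the lowest value was that of the library with few Lars2 and Rn45s reads, young replicate 3 and the 127-week library. The log2 fold change was -0.40 (SE 0.24), the fold interval ran from 0.515 to 1.12 and the adjusted p was 0.552. Within the libraries of each kind the aged-minus-young difference was -0.42 (2 against 2) and -0.33 (1 against 1) on the log2 scale, and with a term for the kind of library the unadjusted p fell below 0.05, with the adjusted p still above it.

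**Figure D2:**
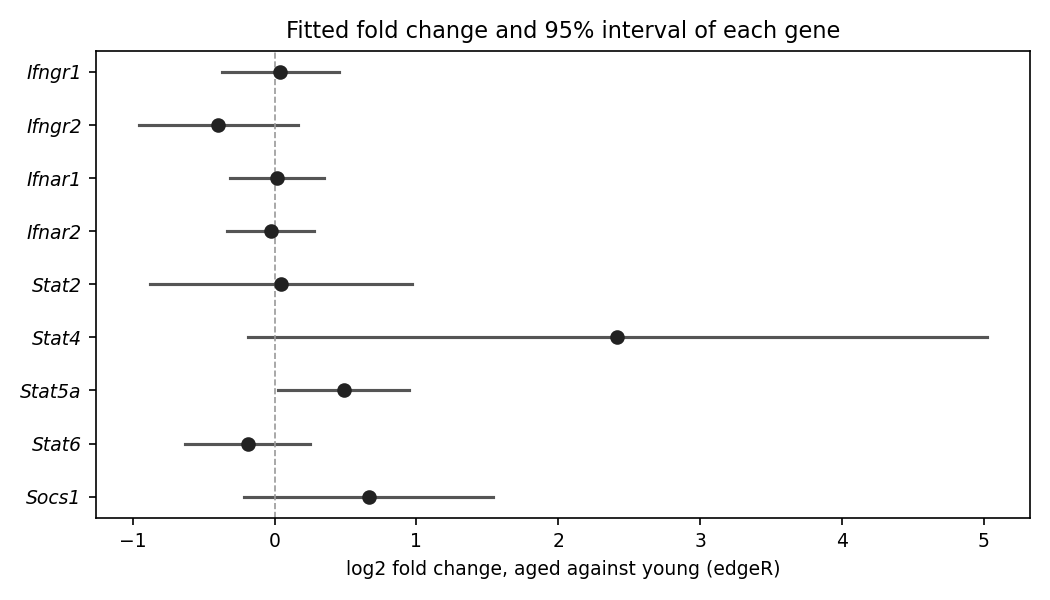
Fitted log2 fold change (x axis, aged against young, edgeR) of each gene as a point, with its 95% interval as a line, over 3 young and 3 aged libraries. The intervals of 8 genes cross 0, that of Stat5a runs from 0.02 to 0.95, and that of Stat4 is the widest, from -0.19 to 5.03.

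Stat6, the most highly counted STAT of the 9 genes, stood at 244, 273 and 344 CPM in young and at 290, 248 and 217 CPM in aged ECs. The ages overlapped, with the highest value in young replicate 3 and the lowest at 136 weeks. Its log2 fold change was -0.19 (SE 0.19), with an adjusted p of 0.742 and a fold interval of 0.647 to 1.19.

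Stat2 had wide and overlapping ranges, at 67.2, 69.2 and 133 CPM in young and at 125, 49.7 and 103 CPM in aged ECs. The highest value of each age was that of the library with few Lars2 and Rn45s reads, and the lowest of all was at 131 weeks. In edgeR its log2 fold change was 0.05 (SE 0.39) with an adjusted p of 0.980, and it lay between -0.23 and 0.45 when each mouse was left out in turn, so that these data give no direction for Stat2. Irf9, which encodes a partner of STAT2 and was set beside it after its values were seen, likewise had its lowest value at 131 weeks, and its highest at 136 weeks. It stood at 118, 133 and 150 CPM in young and at 132, 86.2 and 172 CPM in aged ECs (log2 fold change -0.04, SE 0.25, adjusted p = 0.976). Usp18, an inhibitor that binds Ifnar2, followed the same order in the aged libraries, at 80.3, 33.3 and 150 CPM, against 51.1, 49.9 and 81.8 CPM in young ECs.

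Stat5a was the 1 gene of the 9 that was higher in every aged mouse than in every young mouse by CPM. It stood at 12.5, 11.5 and 9.43 CPM in young and at 13.6, 17.0 and 16.1 CPM in aged ECs, from 254 to 438 reads per library. All 3 aged values lay above all 3 young values, with means of 11.1 ± 1.55 and 15.6 ± 1.79 CPM (SD, n = 3). The log2 fold change was 0.49 (SE 0.20), a fold of 1.40 with a 95% interval from 1.02 to 1.93, with an unadjusted p of 0.0424 and an adjusted p of 0.378 in edgeR. A two-sided exact permutation test of the CPM gave p = 0.1, the smallest that 3 mice against 3 can give. The difference was 0.44 among the 4 libraries with many Lars2 and Rn45s reads and 0.48 between the 2 with few. On the FPKM scale the ages met, with 3.35, 3.10 and 2.41 in young and 3.32, 4.52 and 4.22 in aged ECs, and limma on log2 FPKM gave no unadjusted p below 0.05 for Stat5a. The unadjusted p was also above 0.05 without young replicate 1, 2 or 3, without the 136-week or without the 131-week library, with a log2 fold change of at least 0.38 in each.

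Stat5b, which encodes a protein closely related to STAT5A, stood in the opposite order, at 143, 140 and 136 CPM in young and at 116, 126 and 112 CPM in aged ECs (log2 fold change -0.24, SE 0.12, adjusted p = 0.478). The log2 ratio of Stat5b to Stat5a in FPKM was 3.11, 3.19 and 3.53 in young and 2.83, 2.49 and 2.41 in aged ECs, a mean difference of -0.70 with no overlap (exact permutation p = 0.1). This ratio was chosen after its values were seen, and reads that the pair share could have been split between the genes in the counting. Stat5b was thus 5.32 to 11.5 times as high as Stat5a per transcript length in each library.

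Stat4, a factor of T and NK cells, was close to the floor in young ECs. It had 3, 6 and 15 reads in young replicates 1, 2 and 3 (0.112, 0.271 and 0.473 CPM) and 37, 3 and 81 reads at 127, 131 and 136 weeks (1.27, 0.117 and 3.29 CPM). The 127- and 136-week libraries lay above all young ones, while the 131-week library, at the floor, lay inside the young range. Its fitted log2 fold change was 2.42 (SE 1.11), with an interval from -0.19 to 5.03 and an adjusted p of 0.430 in edgeR, but since the gene passed the filter through aged libraries only, the fit is given as a description. It was 1.27 without the 136-week library, 2.96 without the 131-week library and 3.02 without young replicate 3. Leukocyte genes that were set beside it after their values were seen stood in the same order in the aged libraries. Ptprc was at 7.56 and 25.6 CPM and Nkg7, a gene of cytotoxic lymphocytes, at 2.44 and 10.5 CPM at 127 and 136 weeks, against 1.28 and 0.117 CPM at 131 weeks. Cd3g, of the T cell receptor complex, had 0 reads at 131 weeks and stood at 0.791 and 2.84 CPM in the other aged libraries. Nkg7 and Cd3g reached 0.5 CPM in aged libraries only, and not every T and NK cell marker followed this order. The part of leukocytes in the Stat4 values was not tested.

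**Figure D3:**
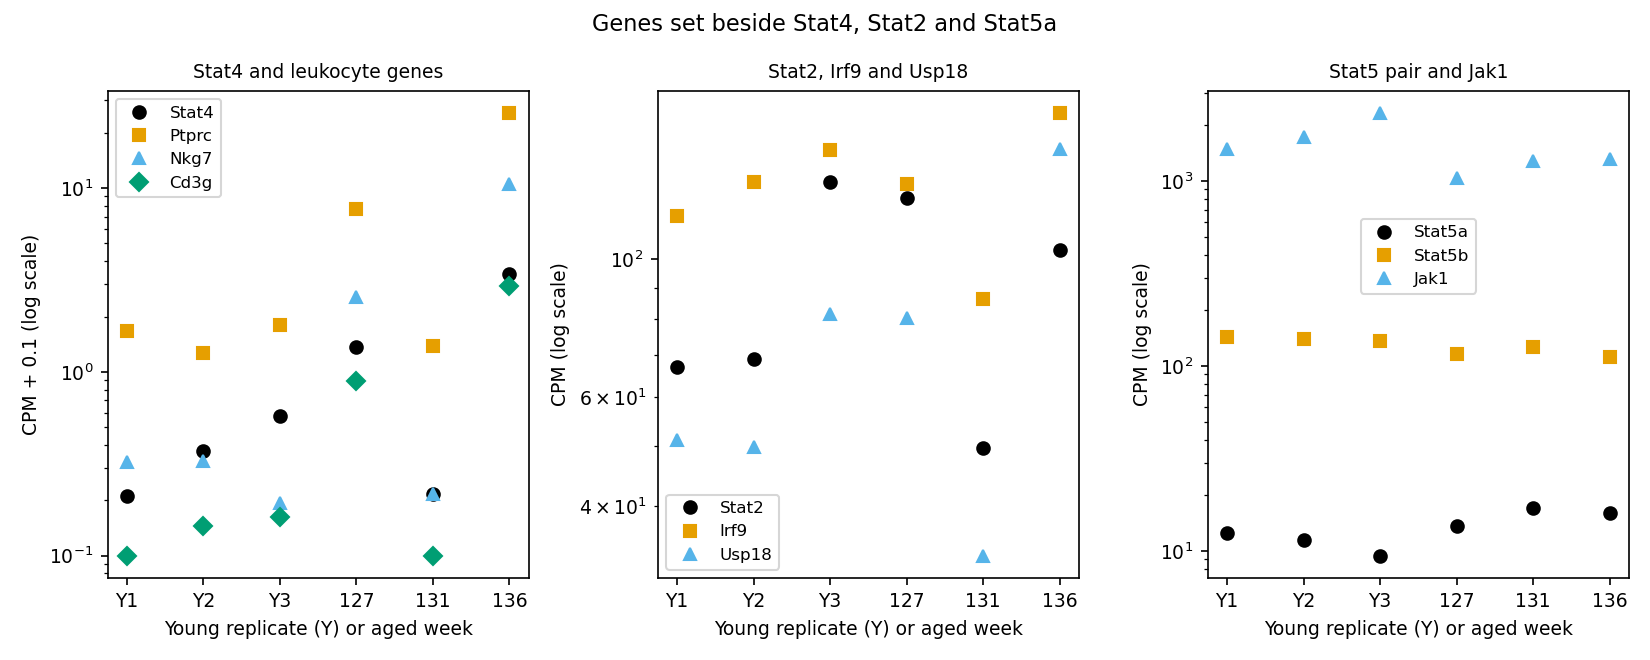
CPM on log axes in each young (Y1 to Y3) and aged (weeks) library, for Stat4 beside leukocyte genes (left, with 0.1 added), Stat2 beside Irf9 and Usp18 (middle), and Stat5a beside Stat5b and Jak1 (right). The left genes are high at 127 and 136 weeks and low at 131 weeks, Stat2, Irf9 and Usp18 are each lowest at 131 weeks, and Stat5a separates by age upwards while Stat5b and Jak1 separate downwards.

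Socs1, the inhibitor of JAK kinases, stood at 31.7, 25.7 and 17.6 CPM in young and at 23.5, 33.9 and 61.4 CPM in aged ECs. The highest value, at 136 weeks, was 1 of 2 aged values above all young ones, and the 127-week value lay inside the young range. In each age the lowest value was that of the library with few Lars2 and Rn45s reads. The log2 fold change was 0.66 (SE 0.38), with a fold interval of 0.861 to 2.91 and an adjusted p of 0.526, and it fell to 0.20 without the 136-week library and rose to 0.94 without the 127-week library. Within the libraries of each kind it was 0.66 and 0.40, and with a term for that kind the unadjusted p fell below 0.05.

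Per transcript length, the receptor chains Ifnar2 and Ifngr1 had the highest and Stat5a and Stat4 the lowest median FPKM of the 9 genes. The median FPKM over the 6 libraries was 164 for Ifnar2, 87.6 for Ifngr1, 69.8 for Stat6, 44.2 for Ifngr2, 26.04 for Socs1, 19.4 for Stat2, 14.1 for Ifnar1, 3.33 for Stat5a and 0.136 for Stat4. Of the 8 neighbouring pairs in this order, 3 had ranges that did not overlap, namely Ifnar2 above Ifngr1, Ifnar1 above Stat5a and Stat5a above Stat4. The ranges of the other 5 neighbouring pairs, from Ifngr1 down to Ifnar1, overlapped over the libraries, although Stat6 stood above Ifngr2 within each of the 6 libraries. The place of the type I receptor chains depended on the length used. Counts and FPKM together imply a length of 1.44 kilobases for Ifnar2 and of 6.97 kilobases for Ifnar1 (medians over libraries), while the longest coding transcripts in GENCODE have 3.047 and 3.909 kilobases. With the latter lengths, Ifngr1 and Ifnar2 stood together at median levels of 80.5 and 78.5 CPM per kilobase, and Ifnar1, at 25.4 CPM per kilobase, stood beside Ifngr2 at 26.4.

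**Figure D4:**
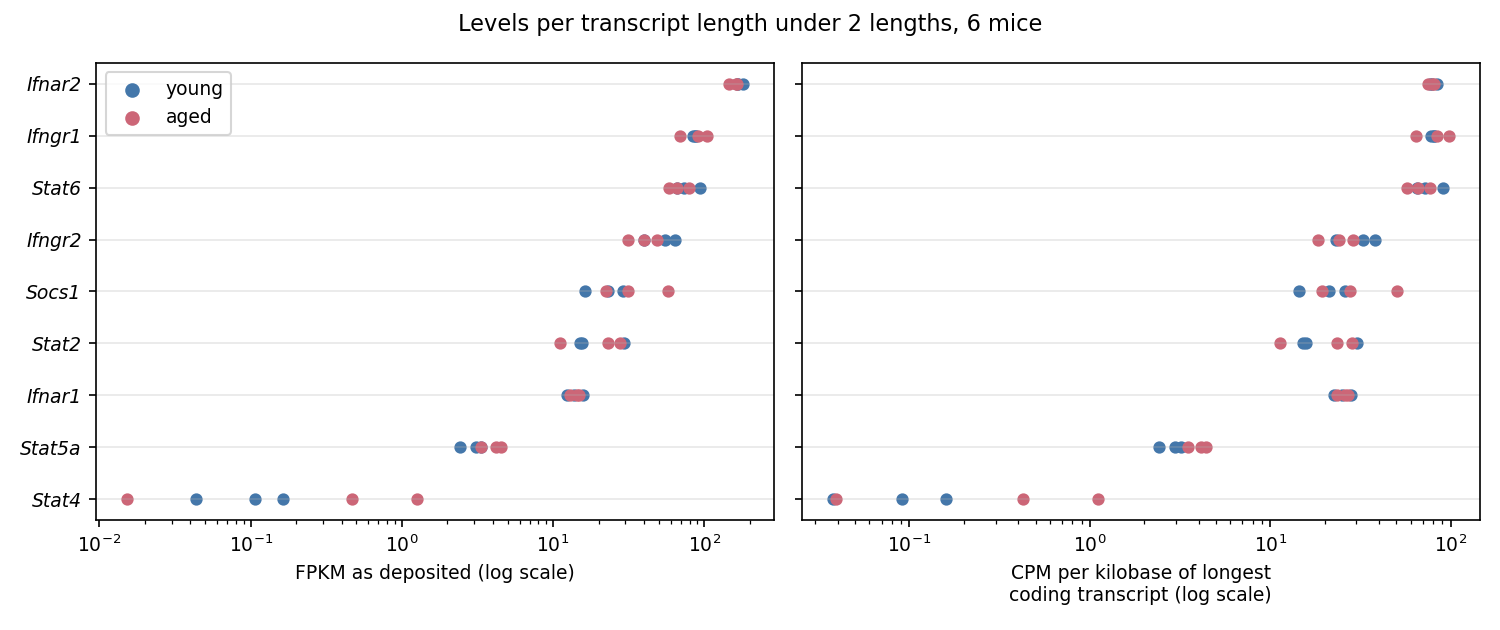
Level of each gene in the 6 libraries (young blue, aged red) on log axes, as the deposited FPKM (left) and as CPM per kilobase of the longest coding transcript (right), with the genes in the order of the median FPKM. Ifnar2 stands above all others on the left and level with Ifngr1 on the right, and Ifnar1 is higher on the right than on the left relative to Socs1 and Stat2.

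The balance of the chains within each receptor was compared in each mouse, since both chains are needed to signal. The log2 ratio of Ifngr1 to Ifngr2 in FPKM was 0.61, 0.44 and 1.16 in young and 1.55, 0.52 and 1.39 in aged ECs, so that Ifngr1 was 1.36 to 2.92 times as high as Ifngr2. The mean difference between the ages was 0.41, less than the SD of 0.55 among aged mice (exact permutation p = 0.3). The log2 ratio of Ifnar2 to Ifnar1 was 3.76, 3.72 and 3.38 in young and 3.34, 3.65 and 3.48 in aged ECs, with a mean difference of -0.13 (exact permutation p = 0.4). Ifnar2 was 10.1 to 13.5 times as high as Ifnar1 by FPKM but 2.74 to 3.49 times by CPM per kilobase of the longest transcript. Ifngr1 was 2.12 to 4.58 times as high as Ifngr2 on the latter scale.

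Among the other genes of the pathway, the kinases Jak1 and Jak3 were lower and the inhibitors Socs2 and Socs3 higher in aged ECs at unadjusted p-values, and none passed edgeR's adjusted threshold. Of 7 genes on the list of other STATs and kinases, which also holds Irf9, 0 were higher and 2 were lower at an unadjusted p below 0.05. Over all genes, 12.6% had such a p in either direction. The median log2 fold change of the list was -0.17. Jak1, the kinase that serves both interferon receptors and the highest expressed of the list, stood at 1484, 1728 and 2338 CPM in young and at 1040, 1288 and 1312 CPM in aged ECs, with no overlap (log2 fold change -0.61, SE 0.23, unadjusted p = 0.0295, adjusted p = 0.350 in edgeR). On the log2 scale, the Jak1 difference was -0.30 among the libraries with many Lars2 and Rn45s reads and -1.17 between those with few. Jak3, the kinase of receptors with the common γ chain, had a log2 fold change of -0.33 (SE 0.14, unadjusted p = 0.0495, adjusted p = 0.394 in edgeR). Of 16 other feedback regulators, 2 were higher and 0 were lower at that threshold, with a median of 0.17, and this share is near the 12.6% of all genes with such a p. Socs2, which restrains growth hormone signalling through STAT5, stood at 24.9, 23.01 and 18.1 CPM in young and at 60.8, 35.2 and 95.4 CPM in aged ECs (log2 fold change 1.54, SE 0.35, adjusted p = 0.235 in edgeR and 0.00294 in DESeq2). Socs3, which restrains interleukin-6 signalling through STAT3, stood at 868, 1025 and 940 CPM in young and at 1256, 1795 and 2682 CPM in aged ECs (log2 fold change 1.02, SE 0.29, adjusted p = 0.256 in edgeR and 0.0212 in DESeq2). Both separated the ages in all libraries, whereas Socs1 did not.

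The ligands were almost absent from the sorted cells. Of 13 interferon ligands and interferon-λ receptor genes, 9 had 0 reads in all libraries and 3 passed the filter on low counts, of which 2 did so through aged libraries only. Ifng had 0 reads in all 3 young libraries and at 131 weeks, and 6 and 16 reads at 127 and 136 weeks, the libraries in which the T and NK cell markers summed to 16.8 and 61.3 CPM. A level of up to 0.135 CPM is allowed by 0 reads in a young library. The gene passed the filter through the 136-week library only (0.650 CPM), so no test of it is given, and the part of these markers was not tested. Il10rb, the highest expressed gene of the list, stood at 170 to 180 CPM in young and at 171, 181 and 114 CPM in aged ECs.

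Of 17 cytokine receptors upstream of STAT4, STAT5 and STAT6, 14 were tested and 11 reached 0.5 CPM in both ages. Of these 11, 2 were higher and 1 was lower at an unadjusted p below 0.05, against 12.6% of all genes, and their median log2 fold change was 0.45. Csf2rb, the β chain that signals for interleukin-3, interleukin-5 and GM-CSF through STAT5, and Csf2rb2, a copy that serves interleukin-3, had log2 fold changes of 1.45 (SE 0.38) and 1.25 (SE 0.31), with adjusted p-values of 0.250 and 0.243 in edgeR and 0.0184 for both in DESeq2. The pair are near-identical copies, so that their reads could be split between them. Csf2rb stood at 5.17, 3.75 and 4.67 CPM in young and at 11.2, 7 and 18.8 CPM in aged ECs. The summed pan-leukocyte markers had the same order as Csf2rb at 127, 131 and 136 weeks (44.5, 15.8 and 176 CPM). Csf2rb2 did not have this order, at 8.18, 9.33 and 16.6 CPM in the same libraries. In young ECs it stood at 4.43, 5.10 and 4.83 CPM. At 131 weeks, however, Csf2rb lay above all young values, while the pan-leukocyte sum lay inside its young range. The part of leukocytes was not tested. Epor, the erythropoietin receptor, moved the other way, from 16.3, 18.6 and 18.5 CPM to 10.5, 13.3 and 10.3 CPM (log2 fold change -0.65, SE 0.19, adjusted p = 0.265 in edgeR and 0.0481 in DESeq2). Il4ra, through which STAT6 is activated and the highest expressed of the list, had a log2 fold change of -0.05 (SE 0.20), so neither it nor Stat6 differed detectably.

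The median fold change of the target genes of both interferons was positive. The fitted log2 fold changes of the 4 receptor chains lay between -0.40 and 0.04, with upper 95% limits of 0.16 to 0.45. Of 22 interferon-γ target genes, 7 were higher and 0 were lower at an unadjusted p below 0.05, with a median log2 fold change of 0.59 against 0.0098 over all genes, of which 12.6% had such a p in either direction. Of the 21 that reached 0.5 CPM in both ages, 6 were higher, with a median of 0.51. This and the other gene lists were chosen with earlier results of these data known, so their counts are given as a description. Their summed level (all 22) was 2538, 2676 and 4096 CPM in young and 5678, 3862 and 8504 CPM at 127, 131 and 136 weeks, the order in which the pan-leukocyte markers stood in the aged libraries (44.5, 15.8 and 176 CPM), whose part was not tested. Irf1, a transcription factor induced through a GAS, stood at 599, 629 and 1006 CPM in young and at 1882, 1446 and 2935 CPM in aged ECs (log2 fold change 1.49, SE 0.33, adjusted p = 0.232 in edgeR and 0.000897 in DESeq2). It separated the ages, while the chains of the receptor did not. Tgtp1, an interferon-inducible GTPase, had a log2 fold change of 2.14 (SE 0.58), Irgm1, another, of 1.09 (SE 0.31), and Cxcl10, a chemokine that attracts T cells, of 1.65 (SE 0.56), with adjusted p-values of 0.256, 0.256 and 0.326 in edgeR. Irgm1 stood at 311 to 445 CPM in young and at 548, 617 and 1109.8 CPM in aged ECs without overlap, and Tgtp1 and Cxcl10 overlapped at 131 weeks. Of 22 type I interferon target genes, 3 were higher and 0 were lower at that p, with a median of 0.35. This count is near the 12.6% of all genes with such a p in either direction. Their summed level was 1621, 1548 and 2219 CPM in young and 2141, 1209 and 4058 CPM at 127, 131 and 136 weeks, so that only the 136-week library lay above the young range and the 131-week library lay below it. Oas3, an antiviral enzyme, Isg15, a ubiquitin-like protein, and Ifit1, which binds viral RNA, had log2 fold changes of 3.24 (SE 1.05), 1.37 (SE 0.51) and 1.76 (SE 0.71), with adjusted p-values of 0.310, 0.354 and 0.376 in edgeR. Each was highest at 136 weeks, with 188 CPM for Isg15 against 62.8 and 43.1 CPM at 127 and 131 weeks and 32.3 to 44.3 CPM in young ECs. Bst2, the highest expressed of the list, had a log2 fold change of -0.05 (SE 0.21).

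Of 13 listed targets of STAT5 and STAT6, 11 were tested, and 3 were higher and 0 lower at an unadjusted p below 0.05. Of the 9 that reached 0.5 CPM in both ages, 2 were higher, against 12.6% of all genes with such a p in either direction, and the median of the 9 log2 fold changes was 0.63. Vcam1, an adhesion molecule of activated ECs that interleukin-4 and also other cytokines induce, stood at 840, 951 and 875 CPM in young and at 1630, 1917 and 2632 CPM in aged ECs (log2 fold change 1.21, SE 0.22, adjusted p = 0.193 in edgeR and 3.56e-05 in DESeq2). Socs2, given above, was the second. Chil3, a product of activated macrophages, was tested through its aged libraries only and stood at 0 to 0.484 CPM in young ECs and at 3.34, 0.233 and 10.8 CPM at 127, 131 and 136 weeks, again the order of the leukocyte markers, whose part was not tested.

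**Figure D5:**
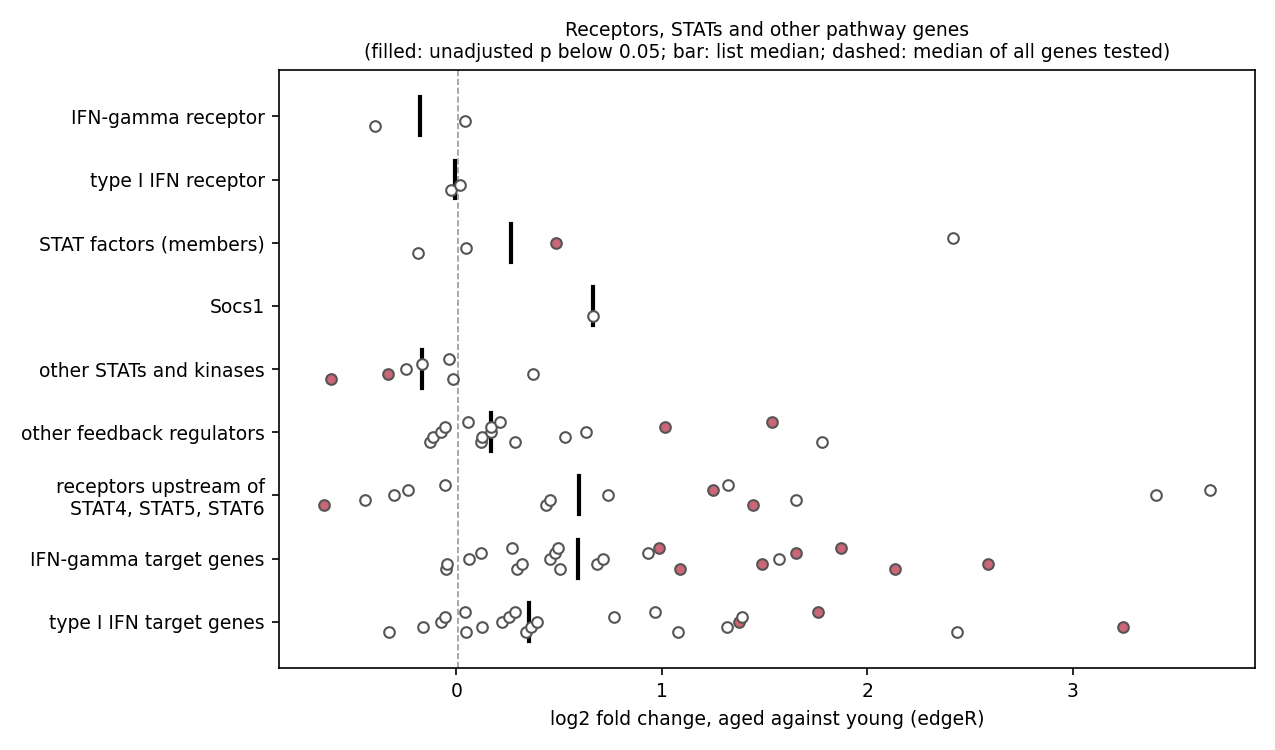
Fitted log2 fold change (x axis, aged against young, edgeR) of each tested gene in the receptor, STAT and other pathway lists, filled where the unadjusted p is below 0.05, with bars at list medians and a dashed line at the median of all genes tested (0.0098). The 4 receptor chains lie between -0.40 and 0.04, while the list medians of the interferon-γ and type I interferon target genes lie at 0.59 and 0.35.

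The genes whose levels over the 6 libraries most resembled each member were found by Pearson's r of log2(CPM + 1), as a description over 6 libraries that share ages and kinds of library. Ifngr1 was most like Parp12 (r = 0.993), an interferon-inducible gene that stood at 110, 78.1 and 134 CPM at 127, 131 and 136 weeks, and Lpl (0.991), lipoprotein lipase. Ifngr2 was most like Lgmn (0.999), a lysosomal protease, and Add1 (0.998). Ifnar1 was most like Ddx41 (0.991) and Crtc3 (0.990), and Ifnar2 like Tmx1 (0.993) and Spred2 (0.990). Stat2 was most like Pdzd2 (0.995) and Usp31 (0.994). Stat4 was most like D630045J12Rik (0.998) and Ms4a6d (0.996), a gene of macrophages that had 1.58, 0.0778 and 5.20 CPM at 127, 131 and 136 weeks. Stat5a was most like Cltb (0.996), a clathrin light chain, and Nqo1 (0.991), a quinone reductase that stood at 42.7 to 85.1 CPM in young and at 120 to 205 CPM in aged ECs. Stat6 was most like Zdhhc4 (0.997) and Ube3b (0.994), and Socs1 like Flna (0.992), filamin A, and Tma16 (0.991). Each r is among the 2 highest over the 14612 genes tested, and so was high by the choice.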

How the data were processed

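Sorted liver ECs of 3 young and 3 aged mice were analysed as whole libraries. The authors called bases with CASAVA 1.8.2, aligned the single reads of 75 bases with TopHat2 2.1.0 (mm9), and deposited unnormalized counts, in whole reads, of 24421 gene symbols. A second deposited table holds the authors' FPKM of 24346 symbols from Cuffnorm 2.2.1, which scales between libraries. The counting program, its annotation and its use of strand are not given in the sources used here, so counts of overlapping, opposite-strand and near-identical genes are uncertain.

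The 14612 genes that reached 0.5 CPM in 1 library or more were kept (2 symbols that stand on more than 1 row were kept as separate rows), normalized by TMM and compared between the ages with the two-sided quasi-likelihood test of edgeR (4.0.16; R 4.3.3). P-values were adjusted over all genes by Benjamini and Hochberg's method, and the threshold was 0.05. SEs were taken from the fold change and the F statistic. For 1 value per mouse, exact permutation tests (two-sided) ran over the 20 splits of 3 against 3. DESeq2 1.42.0, limma 3.58.1, other normalizations and filters, and the removal of each mouse served as alternatives, and CPM per kilobase of the longest coding transcript was added after the data were seen. Replicates of the same age differed beyond sampling noise, with a chi-square per degree of freedom of at least 20.2.

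Named are all 9 members, in each pathway list up to 4 genes with the smallest unadjusted p below 0.05 and the highest expressed gene, and for each member the 2 genes with the largest Pearson r. Irf9, Usp18, Stat5b, Ptprc, Nkg7, Cd3g and the 12 endothelial markers were named beyond this rule after their values were seen. The members and lists were chosen with earlier results of these data known. Sequences are from RefSeq (GRCm38.p6), in which all 9 members were matched by symbol, and positions from GENCODE on mm9. A gene of the list of other STATs and kinases is not reported here and was left out of its counts.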

Additional observations from a re-analysis of the deposited data

How the results depend on the processing

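Over 17 alternatives, 153 fold changes of the 9 genes were computed, of which 0 passed the adjusted threshold and 10 changed sign. The sign changed for Ifngr1 without the 136-week library (-0.10), for Ifnar1 without young replicate 1 (-0.056) or the 136-week library (-0.020), for Ifnar2 with total counts only (0.033), without young replicate 2 (0.012) or the 127-week library (0.0079), and for Stat2 without young replicate 1 (-0.125), young replicate 2 (-0.111), the 127-week (-0.227) or the 136-week library (-0.037). With each mouse left out, the highest values of 3 of them were 0.19 for Ifngr1 (without the 131-week library), and 0.105 for Ifnar1 and 0.445 for Stat2 (without young replicate 3). The cause was not tested.

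The number of all genes called (0 in edgeR) was 4 with no filter on low counts, 630 in the DESeq2 Wald test, 15 in limma-voom, 1 in limma on log2(FPKM + 0.1), 2 with a term for the kind of library, and 0 to 1 when each mouse was left out (1 without the 131-week library). Among the 9, the number with unadjusted p under 0.05 (1, Stat5a) was 0 with no filter and in limma with either pseudocount, 2 in DESeq2 (Stat4 and Stat5a), 1 in limma-voom (Ifngr2 in place of Stat5a), 3 with the term for the kind of library (Ifngr2, Stat5a and Socs1), and 0 to 2 with each mouse left out. It was 0 without young replicate 1, young replicate 2 or the 136-week library, 1 without young replicate 3 (Ifngr2) or the 131-week library (Stat4), and 2 without the 127-week library (Stat5a and Socs1). The number of genes whose ages did not overlap (1) was 1 to 3 with each mouse left out: 2 without young replicate 3 (Ifngr2 and Stat5a) or the 127-week library (Stat5a and Socs1), and 3 without the 131-week library (Ifngr1, Stat4 and Stat5a). On the FPKM scale it was 1, Ifnar2 in place of Stat5a. Neighbours in the order of levels with separate ranges (3) numbered 3 to 5 with each mouse left out, 5 without young replicate 1 or the 131-week library. The chain ratios kept their direction, at 0.22 to 0.73 for Ifngr1 to Ifngr2 and -0.25 to -0.055 for Ifnar2 to Ifnar1 with each mouse left out. No paired analysis was possible because the ages are separate groups of mice and the labels name no pairs. Stat4, at 3 to 15 reads in young ECs, was limited by depth. It passed the filter through aged libraries only, so its places in the counts above are a description.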
